A study of Mus musculus with 3 samples.

Results

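Sonic hedgehog signalling was examined in cultured mouse astrocytes through 10 genes of the pathway, among 19471 genes in the deposited table. They are the ligand gene Shh, the receptor gene Ptch1, the transducer gene Smo, the transcription factor genes Gli1, Gli2 and Gli3, the inhibitor genes Sufu and Hhip, and the co-receptor genes Boc and Gas1. The set was selected on the normalized counts of Shh, which was expressed and differed between libraries, so the values of Shh are given as a description with no test. All 10 genes were in the table and each averaged at least 10 normalized reads, with 175 reads for Hhip and 15853 for Ptch1 as the lowest and highest totals over the libraries. The samples were wild-type (WT) cortical astrocytes taken from mouse pups at postnatal day 1 and held in culture for 7 days. The sample titles and age labels give P1, while the names of the libraries in the table read P0, so the age differs by a day between labels. They form a single group of 3 libraries, named biological replicates 1, 2 and 3 in the labels, from pups numbered 5, 6 and 8. No other genotype, age or treatment was analysed here, so the comparisons run between libraries and between genes.

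In this pathway Hedgehog ligand binds Ptch1 at the cell surface, which releases Smo from repression. Active Smo gathers in the primary cilium and frees the GLI factors from Sufu, so that Gli2 and Gli3 act less as repressors and more as activators. The genes Gli1, Ptch1 and Hhip are transcribed in response in several tissues, and Ptch1 and Hhip encode proteins that hold ligand back. In the mouse forebrain Shh is known to come from neurons, among other sources, and Gli1 marks astrocytes that receive the signal.

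Read totals were 14380993, 25128038 and 9858626 in replicates 1, 2 and 3, so replicate 3 was the shallowest library. One read equalled a normalized count of 0.813, 0.472 and 1.20 in replicates 1, 2 and 3. Means of at least 10 were found for all 10 astrocyte markers and of at least 1000 for 9, led per kilobase by the filament gene Gfap. Neurons, a known source of Shh, were represented only in part. Of 12 neuronal markers 9 were in the deposited table, without Slc17a6, Tbr1 and Neurod6. Means of at least 10 were found for 4 of these 9 and of at least 100 for 3. Highest per kilobase were Stmn2, Tubb3 and Syt1, while the synaptic gene Snap25, among the lowest, had 4, 4 and 2 reads. These are bulk libraries, in which fewer cells of a type and less RNA per cell cannot be told apart. The labels name the libraries biological replicates, but effects of the pup, of its culture and of the preparation cannot be told apart.

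Shh, the secreted ligand, had normalized counts of 160, 149 and 353 in replicates 1, 2 and 3, from 197, 316 and 295 reads. Replicate 3 was high and the other libraries lay close to each other. The counting intervals (95%, exact Poisson) were 139 to 184, 133 to 166 and 314 to 395, and those of replicates 1 and 2 overlapped. The set was selected on this difference, so its size is no evidence of its own. The ratio of replicate 3 to replicate 1 was 2.20 (95% exact interval 1.83 to 2.65), and that of replicate 3 to replicate 2 was 2.37 (2.01 to 2.78). These intervals cover counting error only.

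The other Hedgehog ligand genes were near the floor. Ihh had 3, 2 and 3 reads and Dhh had 5, 11 and 1 reads in replicates 1, 2 and 3. Of the ligand reads, those of Shh made up 96.1%, 96.05% and 98.7% across replicates 1, 2 and 3. The 95% Wilson bounds were 92.5% and 98.01%, 93.4% and 97.7%, and 96.6% and 99.5%, in the same order.

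The receptor and target gene Ptch1 had normalized counts of 3550.3, 3725 and 4295 in replicates 1, 2 and 3. Replicate 3 was again the highest, by a smaller margin than for Shh, with a ratio of 1.21 (95% exact interval 1.16 to 1.26) to replicate 1 and 1.15 (1.11 to 1.20) to replicate 2. Gli1, the GLI gene whose transcription reports pathway activity, had 320.5, 297 and 374. Its ratio was 1.17 (1.004 to 1.36) for replicate 3 over replicate 1 and 1.26 (1.10 to 1.45) for replicate 3 over replicate 2. Both targets were thus highest in the library with the most Shh. Hhip, which encodes a membrane protein that sequesters ligand, had 26.8, 48.1 and 47.8, so it was low in replicate 1 and alike in replicates 2 and 3. Its ratio of replicate 3 to replicate 2 was 0.994 (0.672 to 1.45), against 2.37 for Shh. For each of these 3 targets, the ratio of replicate 3 to each other library was smaller than that of Shh. Shh was selected for this difference, which lay at the 99.9 percentile (replicate 3 minus 1) and 99.8 percentile (replicate 3 minus 2) of genes near it in mean. Nearly any other gene would thus have smaller ratios, so the comparison of sizes cannot show whether targets follow Shh. The exact interval of Hhip for replicate 3 over replicate 1, 1.10 to 2.92 around 1.78, included the value of Shh.

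**Figure D1:**
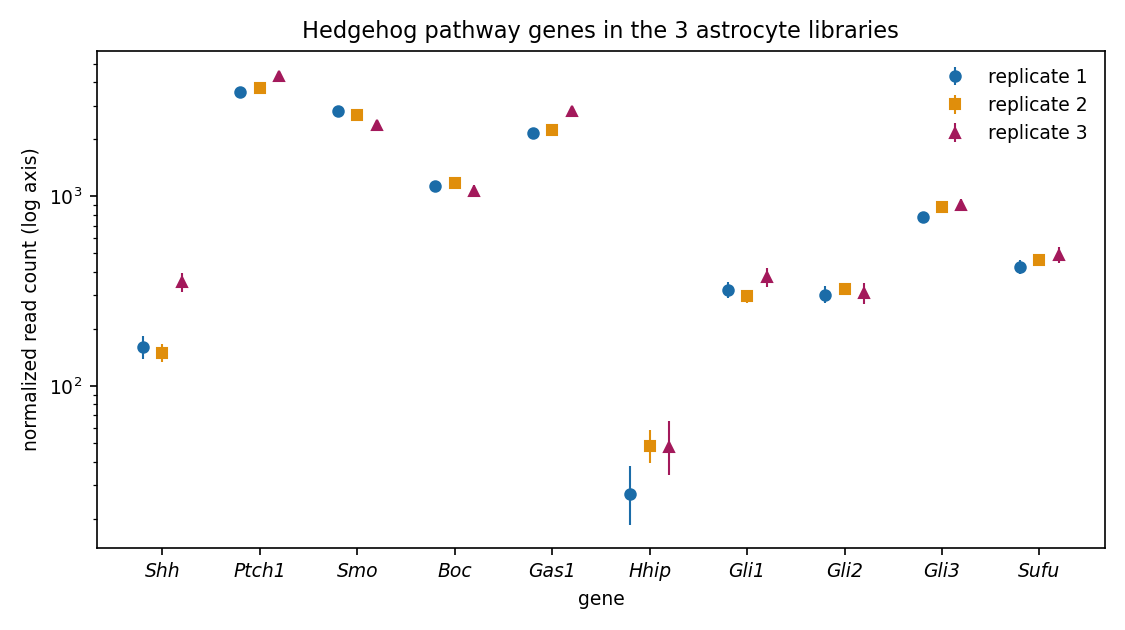
Normalized read count on a log axis for each of the 10 pathway genes in the 3 libraries. Points are libraries and bars are 95% exact Poisson intervals, which cover counting error only. Replicate 3 stands above the others for Shh at 353, while Hhip is low in replicate 1 at 26.8.

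The order of the libraries was compared with that of Shh, which was replicate 3, then 1, then 2 from high to low. Of the 9 other genes 1, Gli1, had that same order. It was found in 15.1% of the 13940 genes averaging at least 10. Replicate 3 was the highest library for 5 of the 9, namely Ptch1, Gli1, Gli3, Sufu and Gas1, against 35.7% of all genes. With 3 libraries no correlation was computed.

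Among the receptors and their partners, Smo ran the other way from Ptch1. Smo, the membrane protein that Ptch1 represses, had 2813, 2676 and 2374 in replicates 1, 2 and 3 and was lowest in the library with the most Shh. Per kilobase of exon the ratio of Ptch1 to Smo was 0.5002, 0.552 and 0.717 in replicates 1, 2 and 3. The co-receptor gene Gas1, which encodes a lipid-anchored protein that presents ligand to Ptch1, had 2157, 2231 and 2813. Its ratio was 1.30 (95% exact interval 1.23 to 1.38) for replicate 3 over replicate 1 and 1.26 (1.20 to 1.32) for replicate 3 over replicate 2. Boc, a co-receptor of the immunoglobulin superfamily, had 1138, 1180 and 1070.2, a range of 1.10-fold, and was lowest in replicate 3.

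The other GLI factors and Sufu followed. Gli2, which encodes the main activator in many tissues, had 303, 324 and 307. Gli3, whose processed product is a repressor, had 773, 879 and 897, so replicate 1 was the low one. Sufu, which encodes the protein that holds GLI factors in the cytoplasm, had 425, 460.4 and 490.3. The standard deviation (SD) of log2 values was 0.05 for Gli2, which ranked at the 8.73 percentile among genes near it in mean, 0.12 for Gli3 and 0.10 for Sufu.

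Reads of each gene were then set against read sampling alone by a chi-square test, where each library's total set the expected share. Of the 9 genes other than Shh, 6 differed between libraries at an adjusted p under 0.05, and over all 13941 genes tested the share was 55.4%. The 6 were Gas1 (adjusted p = 9.92e-23), Ptch1 (adjusted p = 8.22e-16), Smo (adjusted p = 1.62e-08), Gli1 (adjusted p = 0.0063), Gli3 (adjusted p = 0.0099) and Hhip (adjusted p = 0.0232). Boc (adjusted p = 0.0989), Sufu (adjusted p = 0.18) and Gli2 (adjusted p = 0.694) did not pass. The median SD of log2 values was 0.13 over the 9 genes and 0.16 over all genes tested. The common biological coefficient of variation in edgeR was 13.1%, and the value of a single gene was 12.6% for Gli1, 10.6% for Ptch1, 21.1% for Hhip and 24.3% for Shh.

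With a library left out fewer genes were called, among the 9 and among all genes. Without replicate 3 the adjusted p was 0.14 for Ptch1, 0.277 for Gli1 and 0.545 for Gas1, and 3 of the 9 genes were called, against 37.2% of all genes. Without replicate 1 the adjusted p was 0.685 for Gli3 and 0.999 for Hhip, and 4 of the 9 were called, against 35.8% of all genes. Without replicate 2 it was 0.108 for Gli1, and 5 of the 9 were called, against 40.2%. Over all genes the number called was 7726, and 4958 without replicate 1. Replicate 1, the library with little Hhip, was also the one with reads of Xist, the RNA of the inactive X chromosome, at 3000.5 against 0.472 and 4.78 in replicates 2 and 3. Xist and the Y-linked genes Ddx3y, Kdm5d, Eif2s3y and Uty together summed to 3001, 1840 and 2008 in replicates 1, 2 and 3. Reads of Xist thus made up nearly all of that sum in replicate 1 and little of it in the others. The labels state no sex for any pup, and the part of sex in the values of Hhip or of any other gene was not tested.

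**Figure D2:**
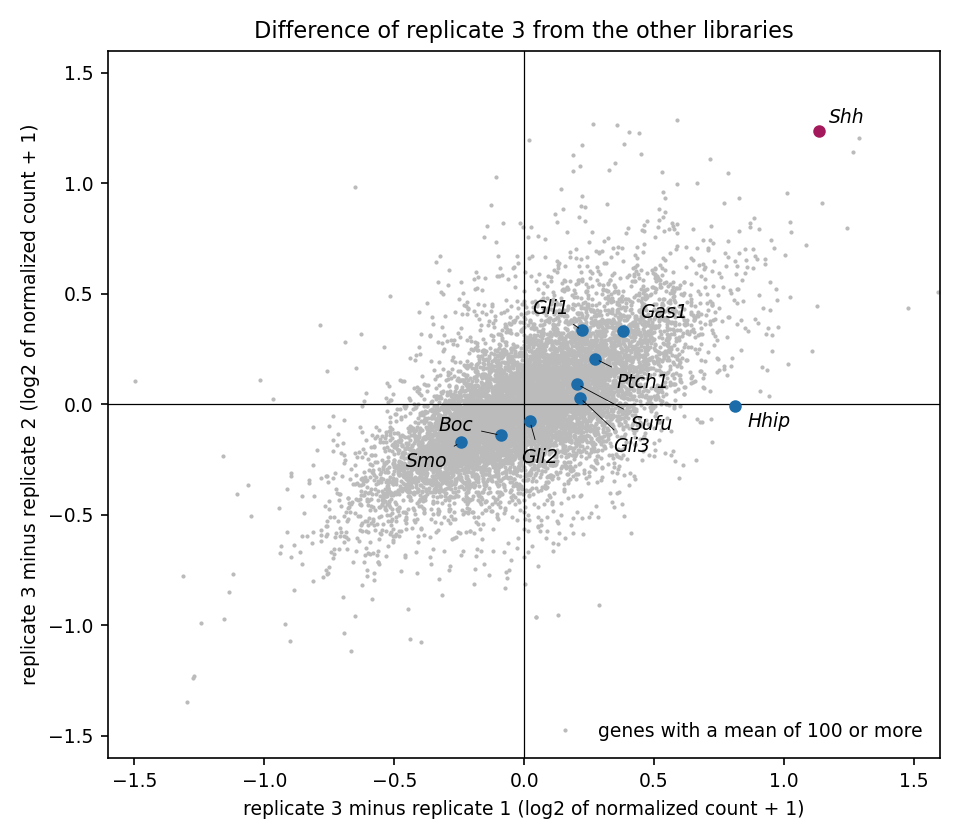
Difference of replicate 3 from replicate 1 (horizontal axis) and from replicate 2 (vertical axis), both as log2 of the normalized count plus 1. Grey points are genes averaging at least 100, of which 12 lie outside the axes, and coloured points are the 10 pathway genes. Shh stands at 1.13 and 1.24, while Gli1 and Ptch1 lie within the bulk of genes and Hhip is displaced along the horizontal axis.

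Levels were compared between genes only per kilobase of exon, as normalized count per kilobase with mean ± SD (n = 3). The length was that of all annotated exons of a gene, merged, and the order depends on it. The order from high to low was Gas1 at 811 ± 121, Smo at 466 ± 39.95, Ptch1 at 272 ± 27.5, Boc at 254 ± 12.4, Gli3 at 88.6 ± 7.00, Shh at 77.5 ± 40.2, Gli1 at 66.2 ± 7.96, Sufu at 59.6 ± 4.22, Gli2 at 45.3 ± 1.64 and Hhip at 4.51 ± 1.34. The ranges over libraries overlapped between Ptch1 and Boc, Gli3 and Shh, Shh and Gli1, and Gli1 and Sufu. They did not overlap between the other neighbours in that order. Gas1 stood at the 95.4 percentile of 13897 genes per kilobase and Hhip at the 4.36 percentile.

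**Figure D3:**
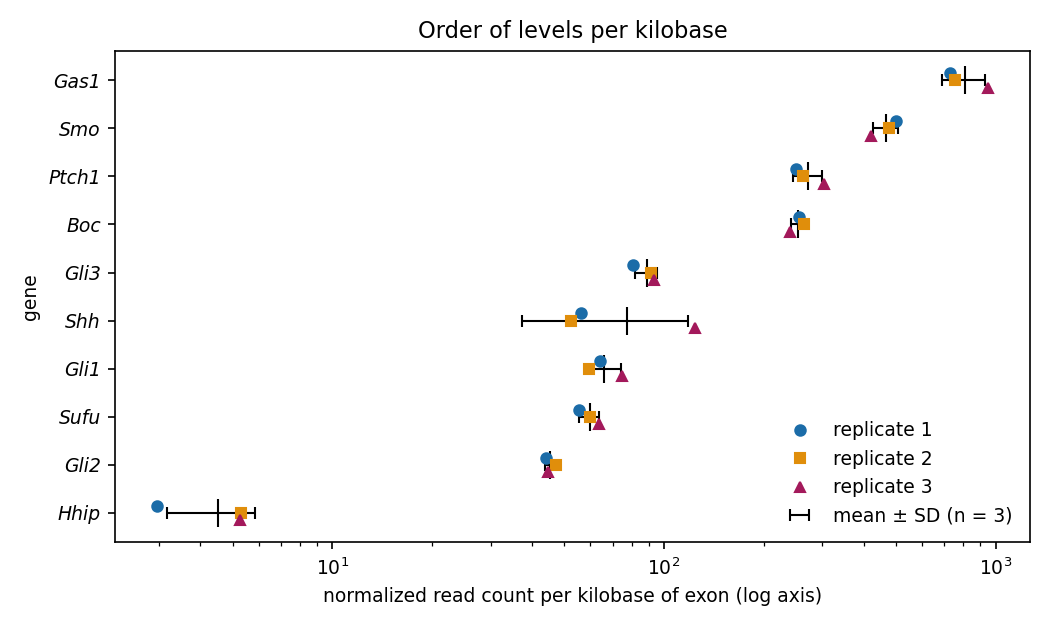
Normalized read count per kilobase of exon on a log axis for the 10 genes, ordered by their mean. Coloured points are the libraries, the vertical tick is the mean and the bar the SD (n = 3). Gas1, Smo, Ptch1 and Boc lie above 200, Hhip lies below 10, and the libraries of Shh span the values of Gli3, Gli1 and Sufu.

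Each gene other than Shh was set against Gli1 within libraries, by an intercept-only limma model fitted to all genes. Of 8 genes, 5 lay above Gli1 per kilobase, against 46.1% of all 13896 genes, and 2 lay below, against 41.1%. The log2 difference was 3.61 ± 0.14 (SE) for Gas1 (adjusted p = 3.65e-134, limma), 2.82 ± 0.15 for Smo, 2.04 ± 0.15 for Ptch1 and 1.94 ± 0.15 for Boc, each positive in 3 of 3 libraries. Gli3 lay 0.42 ± 0.16 above Gli1 (adjusted p = 0.00943, limma) and Gli2 had a difference of -0.54 ± 0.17 (adjusted p = 0.00172, limma), in 3 of 3 libraries each. Hhip had a difference of -3.89 ± 0.26 (adjusted p = 1.51e-49, limma). Sufu, at -0.15 ± 0.16, did not pass (adjusted p = 0.395, limma). With separate variances the adjusted p was 0.00824 for Gas1 and 0.0135 for Hhip (limma). The far smaller values above thus rest on variance shared between genes. With separate variances the calls of Gli3 and Gli2 ended (adjusted p = 0.0669 and 0.0592, limma). They also ended without replicate 1 (adjusted p = 0.103 for Gli3 and 0.0657 for Gli2, limma), and that of Gli3 ended without replicate 2 (adjusted p = 0.106, limma). An exact sign-flip test over 3 libraries cannot give a p below 0.25.

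Of the summed GLI level per kilobase, Gli3 made up 44.3% ± 1.81, Gli1 33.03% ± 2.72 and Gli2 22.7% ± 1.51 (SD, n = 3). The ratio of Gli3 to Gli2 was 1.83, 1.94 and 2.09 in replicates 1, 2 and 3, whereas the ratio of Ptch1 to Gli1 was 3.90, 4.42 and 4.04. Targets of the same pathway differed widely in level. Ptch1 exceeded Hhip 63.9 ± 18.4-fold per kilobase.

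The promoters of Ptch1 and Hhip are shown because they are the targets with the highest and the lowest level per kilobase among Ptch1, Gli1 and Hhip. Each is the window from 250 bases before to 50 bases after the RefSeq start in GRCm38.p6, the assembly that mm10 is built on, read on the minus strand, with CpG dinucleotides in capitals. Ptch1 is at chr13:63565686-63565985 and Hhip at chr8:80057959-80058258. The Ptch1 window lies at a start inside the gene, whose outermost start in GENCODE is 63573598, so it covers only that start.
Ptch1: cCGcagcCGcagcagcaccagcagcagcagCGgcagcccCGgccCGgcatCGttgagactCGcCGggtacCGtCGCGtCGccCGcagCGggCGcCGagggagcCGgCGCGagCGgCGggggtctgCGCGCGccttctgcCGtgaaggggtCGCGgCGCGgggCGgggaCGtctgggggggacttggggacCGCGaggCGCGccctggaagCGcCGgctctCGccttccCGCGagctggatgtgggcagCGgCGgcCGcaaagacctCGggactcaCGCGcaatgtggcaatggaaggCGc
Hhip: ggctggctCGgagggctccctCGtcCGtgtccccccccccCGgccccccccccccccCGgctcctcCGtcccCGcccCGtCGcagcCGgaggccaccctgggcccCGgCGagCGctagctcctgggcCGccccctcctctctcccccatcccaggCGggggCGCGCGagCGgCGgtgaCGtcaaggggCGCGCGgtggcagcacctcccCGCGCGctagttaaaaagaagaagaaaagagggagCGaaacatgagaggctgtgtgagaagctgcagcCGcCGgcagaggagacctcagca
The Ptch1 window held 47 CpG and the Hhip window 30, against a median of 7 over 32851 promoters, so both were at the CpG-rich end, at the 98.6 and 88.3 percentiles. Windows were at hand for 7 of the 10 genes, all but Shh, Gli1 and Boc, and had 12 to 47 CpG. The GLI consensus GACCACCCA was searched on both strands and was in 0 of these 7 windows, against 0.253% of all promoters. Its shorter part CCACCCA, contained in the consensus, was also in 0 of 7, against 9.30% of all promoters. At shares this low, 7 windows are too few for a count of 0 to differ from that of all promoters. These letters were not in these windows, and the rest of each locus was not searched.

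Reads near Shh were examined because transcripts overlap it. Shh (ENSMUSG00000002633) lies on chromosome 5 from 28456815 to 28467256 on the minus strand in mm10, with 2847 nucleotides of exon. Exons of 2 genes on the plus strand overlap its exons, the antisense gene 9530036O11Rik by 446 nucleotides and the non-coding RNA gene Gm26894 by 361 nucleotides. The antisense gene 9530036O11Rik had 1, 0 and 12 reads in replicates 1, 2 and 3. Gm26894 had 8, 14 and 17 reads, which are normalized counts of 6.51, 6.60 and 20.3. Both were high in the same library as Shh. Their reads may in part be those of Shh, so they are given as a description with no test. The strand setting of the authors' counting is not given in the sources used here. Reads of the overlapping stretches therefore cannot be told apart.

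Within 1000 kb of Shh, 7 genes averaged at least 10, and 3 were highest in replicate 3, including Gm26894, against 35.7% of all genes. Apart from Gm26894, their ratios of replicate 3 to either other library lay between 0.851 and 1.34. Rbm33, the nearest of the protein-coding ones, had 660 in replicate 1, 668 in replicate 2 and 749 in replicate 3. Lmbr1, whose intron holds a limb enhancer of Shh in the mouse, had 164, 184 and 164. These neighbours were examined after their values could be seen.

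**Figure D4:**
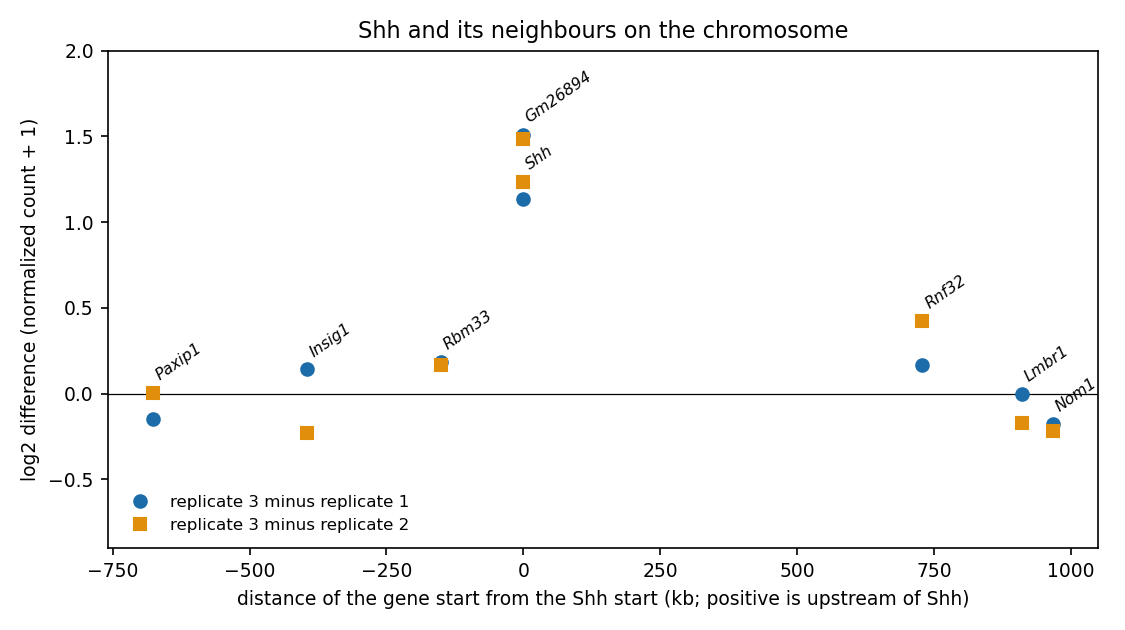
Log2 difference (normalized count plus 1) of replicate 3 from replicate 1 (circles) and from replicate 2 (squares) for Shh and the genes averaging at least 10 whose start lies within 1000 kb of that of Shh, by distance in kb. Shh and the overlapping Gm26894 lie above 1 in both differences, and the remaining genes lie below 0.5.

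Other members also share exon sequence with genes on the other strand. The overlaps of Gli1 with Gm47200 (265 nucleotides), Gas1 with Gm48488 (589 nucleotides) and Hhip with Gm27820 (175 nucleotides) concern genes whose counts were not analysed here. Arhgap9, with 62 nucleotides of exon shared with Gli1, had 123, 126 and 80.1 in replicates 1, 2 and 3 and so was low in the library where Gli1 was high. Gm6556, which overlaps Gli3 by 188 nucleotides, had 17.9, 19.8 and 22.7.

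The genes whose 3 values lay nearest to the pattern of Shh were sought among genes averaging at least 100, by Euclidean distance of centred log2 values. They were the ATP synthase subunit gene Atp5mk at a distance of 0.14, Rpl22l1 at 0.16, Spata17 at 0.20, the ribosomal protein gene Rpl23 at 0.25 and the matrix protein gene Efemp1 at 0.25. Of 10570 genes compared, Gas1 ranked 652 at a distance of 0.68, Gli1 ranked 1034 at 0.74 and Ptch1 ranked 1459 at 0.78, while Hhip, whose mean was below 100, stood at 0.91. The nearest genes to Gli1 were Tle4, Tmt1a, Kif3a, Plagl1 and Cox7a2, at distances of 0.00655 to 0.0134. Genes with less than 1000 nucleotides of exon had a median log2 difference of 0.18 for replicate 3 minus replicate 2 and of -0.016 for replicate 3 minus replicate 1, over 161 genes. For the 2963 genes with exons from 2000 up to 4000 nucleotides, the length class of Shh, the medians were -0.05 for replicate 3 minus replicate 1 and -0.01 for replicate 3 minus replicate 2.

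Markers of cells that can make Shh, or of other cells in such cultures, were summed in each library. The summed level of 7 floor plate genes was 6991, 6276 and 6789 in replicates 1, 2 and 3. Its sum rests on Ntn1, while of the defining genes Foxa2 had 1, 2 and 5 reads, Foxa1 had 3, 0 and 1, and Nkx6-1 was at 0 in all libraries, where up to 3 reads are allowed. The sums were 1148, 761 and 1173 for 9 neuronal genes, led by Stmn2, and 254, 213 and 228 for 8 interneuron genes of the ventral forebrain, led by Dlx2. They were 816, 1212 and 753 for 10 choroid plexus genes, led by Ttr. The ratio of replicate 3 to replicate 1 was 0.971 for floor plate, 1.02 for neurons, 0.900 for interneurons and 0.923 for choroid plexus. That to replicate 2 was 1.08, 1.54, 1.07 and 0.622, in the same order. Such sums mostly reflect their most abundant genes. The sums of 7 ependymal genes, led by Foxj1, were 14501, 10404 and 12310, those of 7 oligodendrocyte precursor genes, led by Olig1, 7831, 8882 and 6395, those of 5 endothelial genes, led by Kdr, 787, 765 and 845, and those of 9 meningeal genes, led by Ogn, 3593, 4318 and 3500.1. The astrocyte sum was 132206, 137641 and 115730.2. The part of these cells in the values of Shh was not tested.

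The wider pathway was described with lists of ligand handling, receptors, cytoplasmic regulators and the cilium, 48 genes without Shh. Of the 44 tested, 30 differed between libraries by the chi-square test, or 68.2%, against 55.4% of all genes. Their median total was 2373 reads and that of all genes tested 1452, and a gene with more reads passes at a smaller difference. Their median SD of log2 values was 0.14. Of these 44, 22 were highest in replicate 3, against 35.7% of all genes.

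For release of ligand, Scube3, which encodes a secreted protein of a family that carries Hedgehog away from the cell, was the highest at 129 ± 12.6 per kilobase. Disp1, the transporter that exports ligand, stood at 25.1 ± 4.37 and Disp2 at 7.98 ± 2.00. Scube1 at 1.53 ± 0.371 and Scube2 at 1.17 ± 1.03 were the lowest, and Hhat, the gene of the acyltransferase that lipidates Shh, stood at 2.86 ± 0.171. Disp1 (adjusted p = 0.0404), Disp2 (adjusted p = 0.0112) and Scube3 (adjusted p = 4.61e-05) differed between libraries in the chi-square test. All were lowest in replicate 3, the library with the most Shh. Disp1 had normalized counts of 149, 139 and 105 in replicates 1, 2 and 3.

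Among the remaining receptor genes, the endocytic receptor gene Lrp2 stood at 173 ± 21.5 per kilobase and the Boc relative Cdon at 146 ± 12.3. Cdon lay 1.14 above Gli1 on the log2 scale per kilobase (adjusted p = 2.00e-13, limma). Lrp2 had normalized counts of 2688, 2665 and 3298 and shared the library order of Shh, as did Gli1. Gpc5 at 0.493 ± 0.262 per kilobase was the lowest of the list, from 4, 2 and 2 reads.

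All 15 cytoplasmic regulators averaged at least 10. Highest among them were Prkar1a and Prkaca, subunits of the kinase that phosphorylates GLI factors, at 1493 ± 64.9 and 789.5 ± 23.9 per kilobase, and the ubiquitin ligase adaptor gene Spop at 869 ± 45.1. The lowest were Btrc at 36.3 ± 2.91 and Ulk3 at 18.6 ± 2.03. In the chi-square test 10 of the 15, Gli1 and Gli3 among them, differed between libraries, against 55.4% of all genes. Kif7, the ciliary kinesin that organizes GLI factors, did not pass with normalized counts of 180, 185 and 177 (adjusted p = 0.929). All 15 cilium genes also averaged at least 10, led by Kif3a at 377 ± 43.7 per kilobase, Ift172 at 171 ± 19.7 and Tulp3 at 149.8 ± 8.24, genes of ciliary transport. The lowest were Efcab7 at 35.9 ± 1.21 and Rpgrip1l at 26.2 ± 2.56. Of these 15 genes, 10 differed between libraries in the chi-square test, against 55.4% of all genes. Replicate 3 was the highest library for 7 of these 15, against 35.7% of all genes, and 6 had the library order of Shh, against 15.1%. Evc and Evc2, whose products act with Smo in the cilium, were chosen after their values were seen. They were like Smo lowest in replicate 3, at normalized counts of 490.3 and 439, against 608 and 554 in replicate 1 and 524 and 508 in replicate 2.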

How the data were processed

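Poly(A) RNA was sequenced with a stranded kit, per the labels' protocols. The deposited table holds a signal, the normalized read count of each gene and library, made by the authors with DESeq2 on build mm10, per the submitters' processing notes. The counting strand is not stated in those notes or labels. Whole reads were recovered for 100% of values within 0.05 reads, and 0 reads allow a normalized count of up to 2.44, 1.42 and 3.59 in replicates 1, 2 and 3. Exon lengths came from GENCODE vM21 (19366 genes) and promoters from RefSeq.

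Log2 values have a pseudocount of 1. Libraries were compared by a chi-square test on recovered reads (mean of 10 and total of 30 as minimums), and levels with Gli1 by limma with a trended prior. Both steps were tested on simulated data. Of genes set to no difference, the chi-square test called 0.0437% and limma 1.62%. Genes set equal to Gli1 had a median log2 estimate of 0.125 in limma, so small differences from Gli1 are uncertain. P-values were adjusted over all genes tested (Benjamini-Hochberg, threshold 0.05). Members, lists and tests were chosen with earlier results of these data known. Named are the members, ligands and targets, the 3 highest and 2 lowest per kilobase of other pathway lists, the leading gene of marker lists and the 5 nearest patterns; others were chosen after their values were seen. One target gene is not reported here. Other scalings, filters, pseudocounts, no division by length, separate variances and leaving out each library were tried. The tools were R 4.3.3 (limma 3.58.1, edgeR 4.0.16, DESeq2 1.42.0), SciPy 1.17.1, pandas 2.3.3, numpy 2.4.6, and Python 3.11.15.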

Additional observations from a re-analysis of the deposited data

How the results depend on the processing

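The number of the 9 genes that differed between libraries was 6 and stayed at 6 with size factors from DESeq2 or with no filter on the mean, and it was 7 with TMM sizes from edgeR, where Boc passed (adjusted p = 0.0199 in a chi-square test with edgeR's TMM sizes; over its alternatives the range was 0.0199 to 0.635). Leaving out 1 replicate gave 3 to 5 of the 9 genes and 4958 to 5415 genes in all. The number with the library order of Shh was 1 under every scaling run and 2 to 7 with a replicate left out, where only 1 pair of libraries is compared and 48.2% to 50.3% of all genes match. The number highest in the same library, counted after seeing the data, was 5 under every scaling run, and 2 to 7 with a replicate left out, the 2 being without replicate 3. Against Gli1, 4 to 5 genes lay above and 1 to 2 below with a replicate left out, and over all genes 5699 to 6742 above and 5180 to 5740 below. The number below was 1 without division by length, where Gli2 did not pass (-0.08, adjusted p = 0.628, limma) and Sufu lay above (0.48, adjusted p = 0.00229, limma), and 1 with separate variances. Not divided by length, Ptch1 lay 3.54 above Gli1, Smo 2.99 and Gas1 2.85, the reverse of their order per kilobase. With no filter on low values 11088 genes lay below, since more low genes were tested. No paired analysis was possible because the samples form 1 group. Depth limits Hhip, with 33 reads in replicate 1. It also limits Ihh and Dhh, which lay below the minimums of the chi-square test, so their differences between libraries were not tested.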

Other observations

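Genes reported as Hedgehog targets in other tissues were present in part. Of these 17, 11 averaged at least 10, led per kilobase by the cyclin genes Ccnd1 at 1405 ± 126 and Ccnd2 at 894 ± 118 and by Sfrp1, a secreted Wnt inhibitor gene, at 876 ± 103 (SD, n = 3). Sfrp1 had normalized counts of 3519, 3627 and 4347 in replicates 1, 2 and 3, and Ccnd2 had 7140.5, 8923 and 9174. Nkx2-2, a ventral patterning factor gene chosen after its value was seen, had 83.8, 99.5 and 124. In the chi-square test 6 of the 11 differed between libraries, against 55.4% of all genes, and 7 of the 11 were highest in replicate 3, against 35.7%. Olig2, 1 of the 6, was not highest in replicate 3. The lowest were Foxa2 and Nkx6-1, and Nkx6-1 had 0 reads in all libraries.

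Of 7 astrocyte genes reported to depend on Hedgehog signal, 6 averaged at least 100, and 5 differed between libraries in the chi-square test, against 55.4% of all genes. The potassium channel gene Kcnj10 had normalized counts of 19743, 21980 and 20757 in replicates 1, 2 and 3, Sparc had 71920 in replicate 1, 67643 in replicate 2 and 73120.4 in replicate 3, and Gfap had 54430.2, 57624 and 44794. Their median SD of log2 values was 0.09 over 7 genes, against 0.16 over all genes tested. The lowest per kilobase were the chemokine gene Cxcl14 at 439 ± 28.7 and the cytokine gene Il33 at 7.64 ± 1.29.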
